A study of Homo sapiens with 12 samples.

Results

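The feedback inhibitors of the ERK pathway described here are 10 genes: the dual-specificity phosphatase genes DUSP1, DUSP2, DUSP4, DUSP5, DUSP6 and DUSP10, the Sprouty genes SPRY2 and SPRY4, and the Sprouty-related genes SPRED1 and SPRED2. They were taken by symbol from a count table of 24302 features, and each of the 10 symbols had 1 row. RNA came from KYSE150, an established cell line from a human squamous carcinoma of the esophagus, in 12 libraries that form 4 groups of 3. The groups carried GFP-TFAP2β-Mut_IDR3 (Mut_IDR3), GFP-TFAP2β-ΔIDR3 (ΔIDR3), GFP-TFAP2β with no named change (WT) or GFP (GFP). By these names, GFP was alone in the GFP group and joined to TFAP2β in the others. Whether the amount of GFP was equal among the groups was not tested. TFAP2β, encoded by TFAP2B, belongs to the AP-2 transcription factors, an IDR is an intrinsically disordered region, and the series' title calls the mutants deficient in phase separation. The promoter that drives the constructs and the number of clones are not given in the labels. The labels also do not say whether the replicates came from different cultures, and the p-values thus cover only the variation among these libraries, possibly technical.

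Growth factor receptors signal through RAS, RAF and MEK to the kinase ERK, and active ERK induces transcription of genes whose products switch the pathway off again. The nuclear phosphatases encoded by DUSP1, DUSP2, DUSP4 and DUSP5 and the cytoplasmic phosphatase encoded by DUSP6 remove the activating phosphates of ERK, DUSP1 also those of p38 and JNK, while DUSP10 acts mainly on p38 and JNK. Sprouty proteins block the path from receptors to RAS, and SPRED proteins restrain RAS and RAF, SPRED1 by bringing the RAS inhibitor neurofibromin to the membrane. RNA levels of these genes are often read as a sign of ERK output, but they measure neither protein nor phosphatase activity.

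RefSeq promoter windows, which run from 250 bases before to 50 bases after a transcription start on GRCh38.p14, were found for 8 of the 10 genes, in 12 windows of 35116. The windows below are shown because they hold a whole copy of an AP-2 motif or of the cyclic AMP response element (CRE), in genes that were higher with WT. This choice used the expression result, so the windows shown cannot link motif and change. Each line gives the 250 bases before the start on the gene's strand, 5′ to 3′, with the motif in capitals: a CRE in DUSP1 at chr5:172771196-172771445 (minus strand), an AP-2 motif in DUSP10 at chr1:221736901-221737150 (minus strand) and an AP-2 motif in SPRY2 at chr13:80341127-80341376 (minus strand).
DUSP1: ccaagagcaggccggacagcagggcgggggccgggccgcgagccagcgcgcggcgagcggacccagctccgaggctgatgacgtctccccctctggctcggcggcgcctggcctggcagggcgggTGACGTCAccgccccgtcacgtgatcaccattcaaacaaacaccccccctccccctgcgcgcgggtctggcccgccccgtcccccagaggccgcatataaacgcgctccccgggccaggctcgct
DUSP10: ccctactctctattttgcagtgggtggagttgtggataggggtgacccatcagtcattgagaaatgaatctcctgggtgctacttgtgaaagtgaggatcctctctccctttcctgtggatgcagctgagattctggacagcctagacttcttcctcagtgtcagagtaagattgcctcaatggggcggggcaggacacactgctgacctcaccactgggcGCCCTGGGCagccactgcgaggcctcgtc
SPRY2: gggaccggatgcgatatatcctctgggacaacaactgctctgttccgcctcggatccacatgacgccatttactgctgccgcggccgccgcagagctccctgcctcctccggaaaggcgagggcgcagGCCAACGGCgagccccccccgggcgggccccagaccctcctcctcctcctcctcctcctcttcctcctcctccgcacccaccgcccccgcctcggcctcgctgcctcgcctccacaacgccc
The first base of the motif lay 125 bases before the start in DUSP1, 29 in DUSP10 and 122 in SPRY2. On either strand, GCCNNNGGC, the AP-2 motif searched, was in 3 of the 12 windows, against 23.2% of all windows. The third was 1 of SPRED1, not shown because that gene was not higher with WT before the GC trend below was removed. The other windows of DUSP10 and SPRY2 held no AP-2 match. The whole CRE, TGACGTCA, was in 1 of the 12 windows against 1.85% of all. Its shorter form TGACG, which overlaps the whole CRE, was in 5 windows (24.6% of all). The AP-1 motif TGANTCA was in 1 window (7.71%), the ETS motif CGGAAG in 2 (19.5%) and the CArG box of SRF in 0 (1.29%). A match describes letters and not binding.

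The libraries held 30.7 to 43.5 M counts. TFAP2B RNA averaged 702 ± 25.9 CPM in Mut_IDR3, 704 ± 62.8 in ΔIDR3, 285, 232 and 323 in the 3 WT libraries and 0.124 ± 0.142 in GFP, where CPM, counts per M counts, use TMM-scaled library sizes and ± is the SD of 3 libraries. The mutants therefore carried more TFAP2B RNA than WT, and the part of that difference in the results below was not tested. The 15 squamous markers summed to 6430 to 6650 CPM in Mut_IDR3, 5530 to 5820 in ΔIDR3, 8220 to 9520 in WT and 6370 to 6620 in GFP, and each was detected in every group. The 9 fibroblast markers summed to 6.56 CPM or less in any library, with FAP and THY1 at 0 in all 12 libraries. The 10 leukocyte and endothelial markers summed to 51.3 to 57.4 CPM in Mut_IDR3, 49.9 to 51.5 in ΔIDR3, 82.3 to 104 in WT and 70.3 to 75.5 in GFP, with PTPRC, PECAM1 and KDR among those at 0 throughout. The sums were highest in WT, where KRT17 made up most of the squamous rise (2360 ± 215 CPM in WT and 775 ± 35.9 in GFP) and CD68 nearly all of the last sum (92.6 ± 10.5 and 71.7 ± 2.36 CPM). Single markers went both ways: of the 15 squamous genes 8 rose and 6 fell in WT against GFP, SOX2 to 0.105 ± 0.0431 CPM in WT, against 4.98 ± 0.728 in GFP. The part of these markers in the results was not tested. In bulk RNA, fewer cells of a type and less RNA per cell cannot be told apart. Fold changes also followed the GC content of genes, with and without WT in the comparison, over 12724 genes (genes are no independent replicates). The Spearman correlation of the log2 fold change with GC was 0.509 in WT over GFP, 0.428 in Mut_IDR3 over GFP and 0.194 in ΔIDR3 over GFP. It was -0.394 in Mut_IDR3 over WT, -0.44 in ΔIDR3 over WT and 0.246 in Mut_IDR3 over ΔIDR3. The fold changes and calls below, but not the levels, the overlap of libraries or the nearest genes, were therefore also computed after removal of a GC trend.

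In WT, 8 of the 9 genes that could be tested were higher than in GFP, and each mutant stood below WT in 8 of the 9. Summed over the 10 genes, the level was 111, 112 and 107 CPM in Mut_IDR3, 143, 145 and 140 in ΔIDR3, 270, 259 and 243 in WT and 107, 111 and 109 in GFP. The WT libraries stood well above all others, the ΔIDR3 libraries lay between, and Mut_IDR3 overlapped GFP. Of the 9 genes with enough counts to test, 8 rose and 1 fell in WT against GFP by edgeR's quasi-likelihood test at an adjusted p under 0.05, where 27.7% of all 14792 tested genes rose and 27.1% fell. The WT and GFP libraries did not overlap in 9 of 9, against 59.4% of all tested genes. The median log2 fold change was 1.97 over the 9 genes and -0.01 over all tested genes. In Mut_IDR3 against WT, 8 of 9 fell, against 20.9% of all tested genes, with a median of -1.47, and the libraries of the 2 groups did not overlap in 8, against 50.7% of all. In ΔIDR3 against WT, 8 fell and 1 rose, against 25% and 27.2% of all, with a median of -1.17, and the libraries did not overlap in 9, against 55.6% of all. These comparisons share the WT libraries, as those with GFP share the GFP libraries, so their directions are not independent of each other. With the GC trend removed, 9 of 9 rose in WT against GFP, where 23.8% of all tested genes rose. With that setting 9 fell in Mut_IDR3 against WT and 8 in ΔIDR3 against WT, where 20.9% and 25% of all fell.

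**Figure D1:**
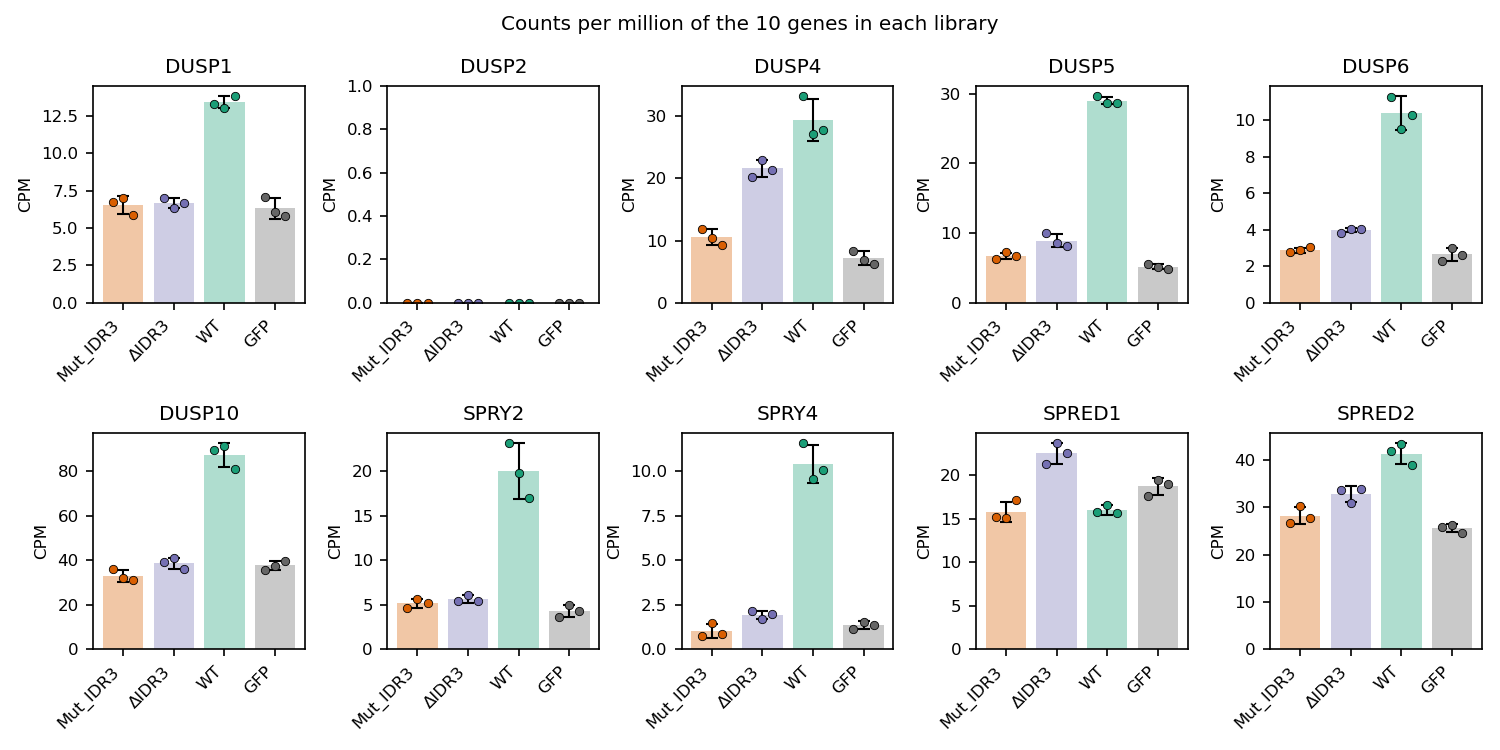
CPM of each of the 10 genes (vertical axes, from 0, each with its own scale) in Mut_IDR3, ΔIDR3, WT and GFP. Points are libraries, bars are group means and error bars are SDs of 3 libraries. Apart from SPRED1 and DUSP2, the WT libraries are highest, and DUSP2 has no counts in any library.

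Among the nuclear phosphatases, DUSP5 rose most with WT. DUSP5 (ENSG00000138166, chromosome 10, 110497838 to 110511544, plus strand, GRCh38), whose product acts on ERK alone among the MAP kinases, had 6.33, 7.22 and 6.71 CPM in Mut_IDR3, 10.0, 8.60 and 8.15 in ΔIDR3, 29.6, 28.7 and 28.7 in WT and 5.59, 5.12 and 4.83 in GFP. The order ΔIDR3 above Mut_IDR3 above GFP held without overlap, at less than the WT level in each case. DUSP5 was 5.60-fold higher in WT than in GFP (log2 fold change 2.49, SE 0.11, adjusted p = 2.11e-10). It was 4.29-fold lower in Mut_IDR3 than in WT (-2.10, SE 0.11, adjusted p = 1.26e-09) and 3.25-fold lower in ΔIDR3 than in WT (-1.70, adjusted p = 8.08e-09). A smaller rise over GFP was called in ΔIDR3 (0.78, SE 0.11, adjusted p = 0.000101).

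DUSP5 was also called in Mut_IDR3 against GFP (0.38, SE 0.11, adjusted p = 0.0229) and in Mut_IDR3 against ΔIDR3 (-0.40, adjusted p = 0.0275), and both calls lay near the threshold. With any 1 library left out the log2 fold change was 0.33 to 0.44 against GFP and -0.45 to -0.30 against ΔIDR3. The call against GFP was lost without GFP replicate 2 (adjusted p = 0.0687), GFP replicate 3 (0.105), Mut_IDR3 replicate 2 (0.0927) or Mut_IDR3 replicate 3 (0.0537), and with the GC trend removed (0.23, adjusted p = 0.131). The call against ΔIDR3 was lost without Mut_IDR3 replicate 1 (adjusted p = 0.107), Mut_IDR3 replicate 3 (0.0832), ΔIDR3 replicate 1 (0.111) or ΔIDR3 replicate 2 (0.0597).

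DUSP4 (ENSG00000120875, chromosome 8, 29333064 to 29350668, minus strand) had the largest rise of these genes in ΔIDR3 over GFP. It had 11.9, 10.5 and 9.37 CPM in Mut_IDR3, 20.3, 23.0 and 21.4 in ΔIDR3, 33.2, 27.2 and 27.8 in WT and 8.37, 6.89 and 6.22 in GFP, and no group overlapped another. The phosphatase it encodes acts on ERK and JNK in the nucleus. DUSP4 was 3.02-fold higher in ΔIDR3 than in GFP (log2 fold change 1.59, SE 0.13, adjusted p = 7.07e-07), and 4.11-fold higher in WT than in GFP (2.04, SE 0.13, adjusted p = 8.91e-09). ΔIDR3 lay 1.36-fold below WT (-0.45, SE 0.12, adjusted p = 0.00573), while Mut_IDR3 lay 2.77-fold below WT (-1.47, SE 0.12, adjusted p = 3e-07) and 2.04-fold below ΔIDR3 (-1.03, SE 0.12, adjusted p = 0.000155). In Mut_IDR3, DUSP4 was above GFP by 0.57 on the log2 scale (SE 0.13, adjusted p = 0.00699). Among all 14792 tested genes, the rank of DUSP4 by log2 fold change over GFP, counted from the largest rise, was 737 in Mut_IDR3, 154 in ΔIDR3 and 271 in WT.

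DUSP1 (ENSG00000120129, chromosome 5, 172768090 to 172771195, minus strand), an immediate early gene of growth factors and stress, was higher than GFP in WT and not detectably in the mutants. It had 6.75, 7.04 and 5.87 CPM in Mut_IDR3, 7.04, 6.36 and 6.70 in ΔIDR3, 13.3, 13.0 and 13.8 in WT and 7.07, 6.08 and 5.78 in GFP. Every WT library was above every other library, and the remaining groups overlapped. DUSP1 was 2.12-fold higher in WT than in GFP (1.08, SE 0.12, adjusted p = 2.83e-06). It was 2.04-fold lower in Mut_IDR3 than in WT (adjusted p = 8.86e-06) and 1.99-fold lower in ΔIDR3 than in WT (adjusted p = 6.97e-06). Against GFP, the 95% interval of the log2 fold change ran from -0.23 to 0.34 in Mut_IDR3 and from -0.19 to 0.37 in ΔIDR3, so changes of that size were not detectable.

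DUSP2 (ENSG00000158050, chromosome 2, 96143166 to 96145440, minus strand), a nuclear ERK phosphatase known mainly from lymphocytes, had 0 counts in all 12 libraries. Over their 454 M counts, 0 allows a level of up to 0.0066 CPM (3 counts), by counting error alone. Whether the counting, whose program is not given, could assign reads to DUSP2, at 63.9% GC, was not tested, so the 0 describes the table. It could not be tested in any comparison.

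DUSP6 (ENSG00000139318, chromosome 12, 89347232 to 89353271, minus strand), the cytoplasmic phosphatase specific to ERK, had 2.76, 2.87 and 3.04 CPM in Mut_IDR3, 3.84, 4.05 and 4.06 in ΔIDR3, 11.3, 9.50 and 10.3 in WT and 2.32, 3.01 and 2.63 in GFP. The WT libraries were highest, the ΔIDR3 libraries lay between, and Mut_IDR3 overlapped GFP. DUSP6 was 3.91-fold higher in WT than in GFP (log2 fold change 1.97, SE 0.15, adjusted p = 6.31e-08) and also higher in ΔIDR3 than in GFP (0.59, SE 0.15, adjusted p = 0.00883). It was 3.59-fold lower in Mut_IDR3 than in WT (-1.84, adjusted p = 2e-07) and 2.60-fold lower in ΔIDR3 than in WT (-1.38, adjusted p = 1.86e-06). Between the mutants the difference missed the threshold (-0.46, 95% interval -0.81 to -0.12, adjusted p = 0.0607), although their libraries did not overlap, as was so for 34.3% of all tested genes. The exons of DUSP6 share 1875 bases with an antisense gene in GENCODE 29, AC024909.2, which has no row of its own. The strand setting of the counting is not given in the sources used here, so reads of the pair cannot be told apart.

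DUSP10 (ENSG00000143507, chromosome 1, 221701424 to 221742176, minus strand), the phosphatase of p38 and JNK, was the most abundant of the 10 per length of transcript. It had 36.2, 31.9 and 31.2 CPM in Mut_IDR3, 39.2, 40.9 and 36.0 in ΔIDR3, 89.5, 91.0 and 81.0 in WT and 35.8, 37.5 and 39.8 in GFP. The WT libraries were above all others, with no gap between the other groups. DUSP10 was 2.31-fold higher in WT than in GFP (1.21, SE 0.08, adjusted p = 1.61e-08), 2.64-fold lower in Mut_IDR3 than in WT (adjusted p = 5.22e-09) and 2.25-fold lower in ΔIDR3 than in WT (adjusted p = 2.28e-08). Against GFP its log2 fold change was -0.19 in Mut_IDR3 (95% interval -0.38 to -0.00, adjusted p = 0.11) and 0.04 in ΔIDR3 (-0.15 to 0.22, adjusted p = 0.771).

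SPRY4 (ENSG00000187678, chromosome 5, 142310427 to 142326455, minus strand), an inhibitor between receptor and RAS, had the largest fold change of the 9 tested genes in WT against GFP. Its values were 0.771, 1.49 and 0.858 CPM in Mut_IDR3, 2.15, 1.71 and 1.96 in ΔIDR3, 11.6, 9.56 and 10.1 in WT and 1.13, 1.55 and 1.39 in GFP. Only in WT was it above 3 CPM, and Mut_IDR3 overlapped GFP. SPRY4 was 7.69-fold higher in WT than in GFP (2.94, SE 0.24, adjusted p = 1.05e-07). It was 9.99-fold lower in Mut_IDR3 than in WT (-3.32, SE 0.24, adjusted p = 6.15e-08) and 5.37-fold lower in ΔIDR3 than in WT (-2.43, SE 0.23, adjusted p = 5.84e-07). Against GFP, the log2 fold change was -0.38 in Mut_IDR3 (95% interval -0.94 to 0.19, adjusted p = 0.303) and 0.52 in ΔIDR3 (-0.03 to 1.06, adjusted p = 0.115).

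Between the mutants SPRY4 was lower in Mut_IDR3 (-0.89, SE 0.24, adjusted p = 0.0282), a call from 118 counts in Mut_IDR3 and 233 in ΔIDR3. It was lost without Mut_IDR3 replicate 1 (adjusted p = 0.104), Mut_IDR3 replicate 3 (0.112), ΔIDR3 replicate 1 (0.0833) or ΔIDR3 replicate 3 (0.0734), and over all fits with 1 library left out the value ran from -1.24 to -0.72.

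SPRY2 (ENSG00000136158, chromosome 13, 80335976 to 80340951, minus strand), the other Sprouty gene, had 4.69, 5.66 and 5.17 CPM in Mut_IDR3, 5.44, 6.13 and 5.42 in ΔIDR3, 23.2, 19.8 and 17.0 in WT and 3.62, 4.97 and 4.30 in GFP. WT stood far above the other groups, and the mutants overlapped each other. SPRY2 was 4.66-fold higher in WT than in GFP (2.22, SE 0.15, adjusted p = 2.1e-08), 3.86-fold lower in Mut_IDR3 than in WT (adjusted p = 1.1e-07) and 3.53-fold lower in ΔIDR3 than in WT (adjusted p = 1.39e-07). In ΔIDR3 against GFP it was 0.40 (SE 0.15, adjusted p = 0.0598), and 0.49 without GFP replicate 2 (adjusted p = 0.0428). In Mut_IDR3 against GFP it was 0.27 (95% interval -0.08 to 0.62, adjusted p = 0.223).

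**Figure D2:**
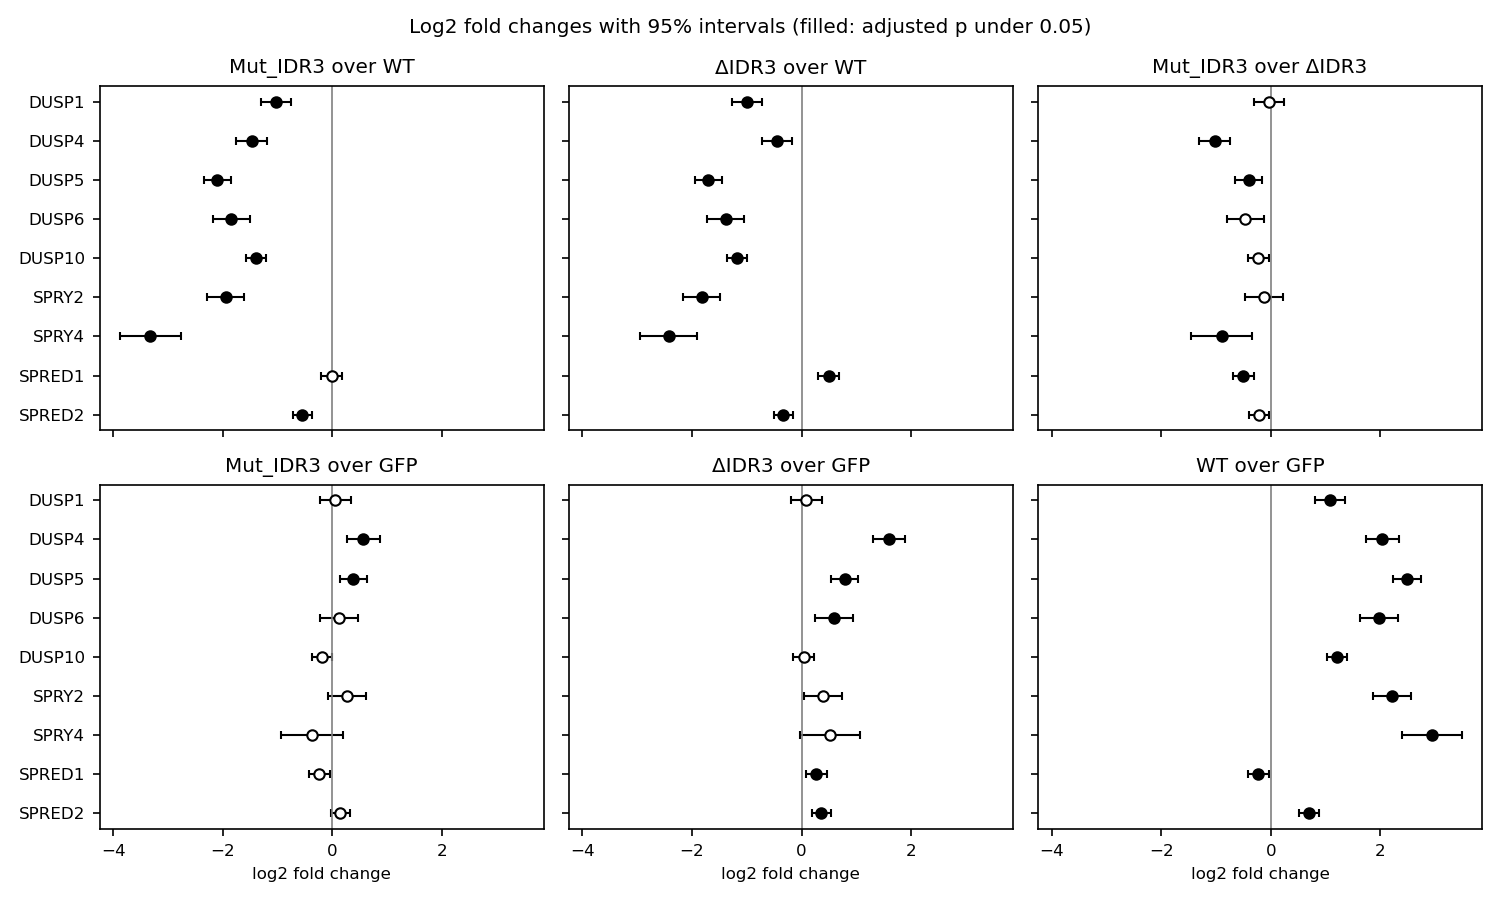
Log2 fold changes (horizontal axes) of the 9 tested genes in 6 comparisons, the first-named group over the second. Points are edgeR estimates with 95% intervals, filled where the adjusted p was under 0.05. In WT over GFP the points run from -0.22 for SPRED1 to 2.94 for SPRY4.

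The SPRED genes changed less. SPRED2 (ENSG00000198369, chromosome 2, 65310851 to 65432637, minus strand), which inhibits activation of RAF, had 26.8, 30.3 and 27.8 CPM in Mut_IDR3, 33.8, 31.0 and 33.9 in ΔIDR3, 41.9, 43.4 and 39.0 in WT and 25.8, 26.3 and 24.7 in GFP. Each group stood above the next in the order WT, ΔIDR3, Mut_IDR3 and GFP. SPRED2 was 1.62-fold higher in WT than in GFP (0.70, SE 0.08, adjusted p = 2.47e-06) and 1.29-fold higher in ΔIDR3 than in GFP (0.36, adjusted p = 0.0026). It was 1.46-fold lower in Mut_IDR3 than in WT (adjusted p = 4.44e-05) and 1.26-fold lower in ΔIDR3 than in WT (adjusted p = 0.00186). The difference of Mut_IDR3 from GFP missed the threshold (0.15, adjusted p = 0.192), as did that of Mut_IDR3 from ΔIDR3 (-0.22, adjusted p = 0.086). With the GC trend removed, the difference of Mut_IDR3 from ΔIDR3 was called (-0.21, adjusted p = 0.0465).

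SPRED1 (ENSG00000166068, chromosome 15, 38252326 to 38357249, plus strand) went against the others, with its highest level in ΔIDR3. It had 15.2, 15.1 and 17.1 CPM in Mut_IDR3, 21.3, 23.7 and 22.5 in ΔIDR3, 15.8, 16.6 and 15.6 in WT and 17.6, 19.4 and 19.0 in GFP. The ΔIDR3 libraries stood above all others, and Mut_IDR3 and WT overlapped. SPRED1 was 1.41-fold higher in ΔIDR3 than in WT (0.49, SE 0.08, adjusted p = 0.000164) and 1.42-fold lower in Mut_IDR3 than in ΔIDR3 (-0.50, SE 0.08, adjusted p = 0.00178). In WT against GFP it fell by 0.22 on the log2 scale (SE 0.08, adjusted p = 0.0342). This call was lost without GFP replicate 2 (adjusted p = 0.129), GFP replicate 3 (0.1), WT replicate 1 (0.0831) or WT replicate 3 (0.0961), and by DESeq2 (0.0686), with values of -0.26 to -0.19 over the fits with 1 library left out. In ΔIDR3 against GFP it rose by 0.27 (adjusted p = 0.0256). That call was lost without GFP replicate 1 (adjusted p = 0.12), 2 (0.06) or 3 (0.0757), or without ΔIDR3 replicate 2 (0.127) or 3 (0.0782), at 0.21 to 0.29 over the fits with 1 library left out.

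SPRED1 also had the lowest GC content of the 10 transcripts, 38.9%, against 63.9% in DUSP2 at the other end. With the GC trend removed, its change turned to a rise in WT against GFP (0.35, adjusted p = 0.00208) and became a fall in Mut_IDR3 against WT (-0.35, adjusted p = 0.00257, against -0.01 and 0.932 before). The difference of ΔIDR3 from WT ended at 0.06 (adjusted p = 0.571), while Mut_IDR3 stayed below ΔIDR3 (-0.40, adjusted p = 0.00323). For the other 8 genes, whose GC content lay between 45.6% and 55.9%, the WT over GFP log2 fold change moved less and kept its call. The largest of these moves was that of DUSP5, to 2.19 with the trend removed, and DUSP1 came to 0.81 (adjusted p = 3.16e-05).

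**Figure D3:**
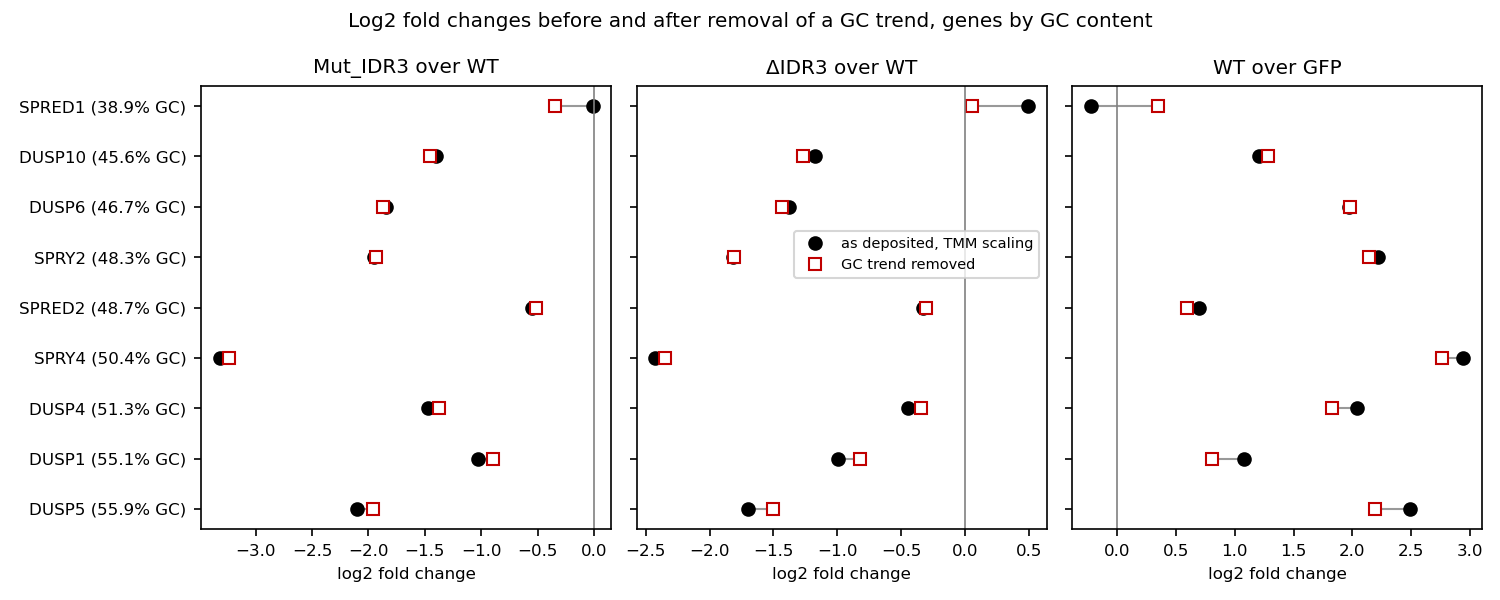
Log2 fold changes (horizontal axes) of the 9 tested genes before (filled circles) and after (open squares) removal of a GC trend, with genes ordered down the page from low to high GC content. SPRED1, at 38.9% GC, crosses 0 in WT over GFP, from -0.22 before to 0.35 after.

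Some genes were also higher in the mutants than in GFP. In Mut_IDR3 against GFP, 2 of 9 genes rose and 0 fell, where 11.2% of all tested genes rose and 9.85% fell, and the median log2 fold change was 0.13. Their libraries did not overlap in 4 of the 9, against 43.5% of all tested genes. In ΔIDR3 against GFP, 5 rose (DUSP4, DUSP5, DUSP6, SPRED1 and SPRED2) and 0 fell, where 15.6% rose and 13.4% fell, with a median of 0.40, and the libraries did not overlap in 7, against 47% of all. Set against each other, Mut_IDR3 was below ΔIDR3 in 4 of 9 genes (DUSP4, DUSP5, SPRY4 and SPRED1), where 5.24% of all tested genes were lower and 5.54% higher, with a median of -0.40, and the libraries did not overlap in 6, against 34.3% of all. The log2 fold changes in Mut_IDR3 against ΔIDR3 ran from -1.03 for DUSP4 to -0.03 for DUSP1, and 5 of the 9 were not called. DUSP1 (adjusted p = 0.905) and SPRY2 (-0.13, adjusted p = 0.648) were among those 5. The median over all tested genes was -0.007. With the GC trend removed, 5 genes were lower in Mut_IDR3 than in ΔIDR3, as SPRED2 became called near the threshold (-0.21, adjusted p = 0.0465). In ΔIDR3 against GFP 5 rose with that setting too. The shares of all tested genes for these 2 comparisons with that setting are not given here.

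Per kilobase of the longest transcript, a scale that allows comparison between genes, DUSP10 was highest in each group, at 12.4 ± 1.00 CPM per kb in Mut_IDR3, 14.5 ± 0.917 in ΔIDR3, 32.6 ± 2.02 in WT and 14.1 ± 0.758 in GFP. In WT, DUSP5 (11.3 ± 0.206 CPM per kb) and SPRED2 (10.1 ± 0.553) followed, and SPRY2 (7.39 ± 1.15) and DUSP1 (6.61 ± 0.198) overlapped within their SDs. DUSP4 stood at 5.31 ± 0.597. DUSP6 (2.36 ± 0.207), SPRED1 (2.05 ± 0.0684) and SPRY4 (1.95 ± 0.199) formed the low end, and SPRED1 and SPRY4 did not differ beyond their SDs. In GFP the order was DUSP10, SPRED2 (6.25 ± 0.207), DUSP1 (3.13 ± 0.334), SPRED1 (2.40 ± 0.121), DUSP5 (2.03 ± 0.150), SPRY2 (1.59 ± 0.248), DUSP4 (1.29 ± 0.199), DUSP6 (0.603 ± 0.0789) and SPRY4 (0.254 ± 0.0398), with SPRY2 and DUSP4 within their SDs of each other. DUSP5 thus stood above SPRED2, DUSP1 and SPRED1 in WT and below them in GFP.

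The genes nearest to each member were found by the root mean square difference of log2 CPM, each gene centred on its own mean, over the 12 libraries and among 10153 genes. DUSP1 was nearest to KLF6, a zinc finger transcription factor (0.074), and DUSP10 to NFE2L3 (0.119). KLF6 had 37.7 ± 1.64 CPM in Mut_IDR3, 38.5 ± 1.09 in ΔIDR3, 79.9 ± 4.54 in WT and 34.9 ± 2.98 in GFP. DUSP5 and DUSP6 each had SOX9, a transcription factor of progenitor cells, among their nearest (0.171 and 0.162), with CYR61, a secreted matrix protein, beside DUSP5 (0.171). SPRY2 was nearest to AREG, which encodes the EGFR ligand amphiregulin (0.163), and then to GATA3 (0.179). DUSP4 (OSBP2, 0.258) and SPRY4 (MARCKSL1, 0.278) had no gene as near, while SPRED2 (ZNF622, 0.059) and SPRED1 (UAP1, 0.084) lay near genes of small change. AREG had 14.8 ± 0.784 CPM in Mut_IDR3, 16.9 ± 0.987 in ΔIDR3, 51.2 ± 5.35 in WT and 14.4 ± 1.94 in GFP.

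Other genes listed as transcriptional outputs of ERK were mostly higher with WT. The list also holds ELK1, ELK3 and ELK4, which encode transcription factors that ERK acts on. Of 28 listed, 25 were tested, and 22 rose and 1 fell in WT against GFP, where 27.7% of all tested genes rose and 27.1% fell, with a median log2 fold change of 1.37 (22 rose and 0 fell with the GC trend removed, where 23.8% of all rose). Among the strongest calls were PLAUR, the urokinase receptor (3.06, adjusted p = 1.58e-13), FOSL1, an AP-1 subunit (2.56, adjusted p = 6.47e-13), and IER3, an immediate early survival gene (2.01, adjusted p = 8.56e-12). EGR1, an immediate early transcription factor, was 2.68 higher on the same scale (adjusted p = 5.3e-09) and the ETS factor gene ETV5 1.61 higher (adjusted p = 4.68e-09). The 1 that fell was ELK4 (-0.69, adjusted p = 0.000193), at -0.10 with the GC trend removed. ELK1 (0.44) and ELK3 (0.43) were among the 22 that rose. So was EPHA4 (2.53, adjusted p = 0.0475), at only 0.323 ± 0.319 CPM in WT and 0.0521 ± 0.046 in GFP. With the GC trend removed the 22 were not all the same genes. ELK1 lost its call (0.10, adjusted p = 0.199) and HMGA2 gained one (0.49, adjusted p = 0.00162).

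In Mut_IDR3 against WT, 21 of the 25 fell and 0 rose, where 20.9% of all tested genes fell and 23.2% rose, and in ΔIDR3 against WT, 20 fell and 1 rose, where 25% fell and 27.2% rose. Against GFP, 7 rose and 2 fell in Mut_IDR3 (11.2% and 9.85% of all) and 7 rose and 0 fell in ΔIDR3 (15.6% and 13.4% of all). With the GC trend removed, 4 rose and 2 fell in Mut_IDR3 against GFP (7.98% and 7.08% of all tested genes): IER3, ETV4, FOS and ELK4 lost their calls and MYC became called lower. The 9 calls of Mut_IDR3 against GFP before that became 4 without GFP replicate 3, 5 without GFP replicate 2, 5 without Mut_IDR3 replicate 3 and 6 without Mut_IDR3 replicate 1 or 2. FOSL1 was above GFP by 0.59 on the log2 scale in Mut_IDR3 (adjusted p = 7.23e-05) and by 1.52 in ΔIDR3 (adjusted p = 9.68e-10), and Mut_IDR3 was below ΔIDR3 (-0.92, adjusted p = 1.14e-06). The log2 fold change of PLAUR over GFP was 0.09 in Mut_IDR3 (adjusted p = 0.425) and 0.08 in ΔIDR3 (adjusted p = 0.399).

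**Figure D4:**
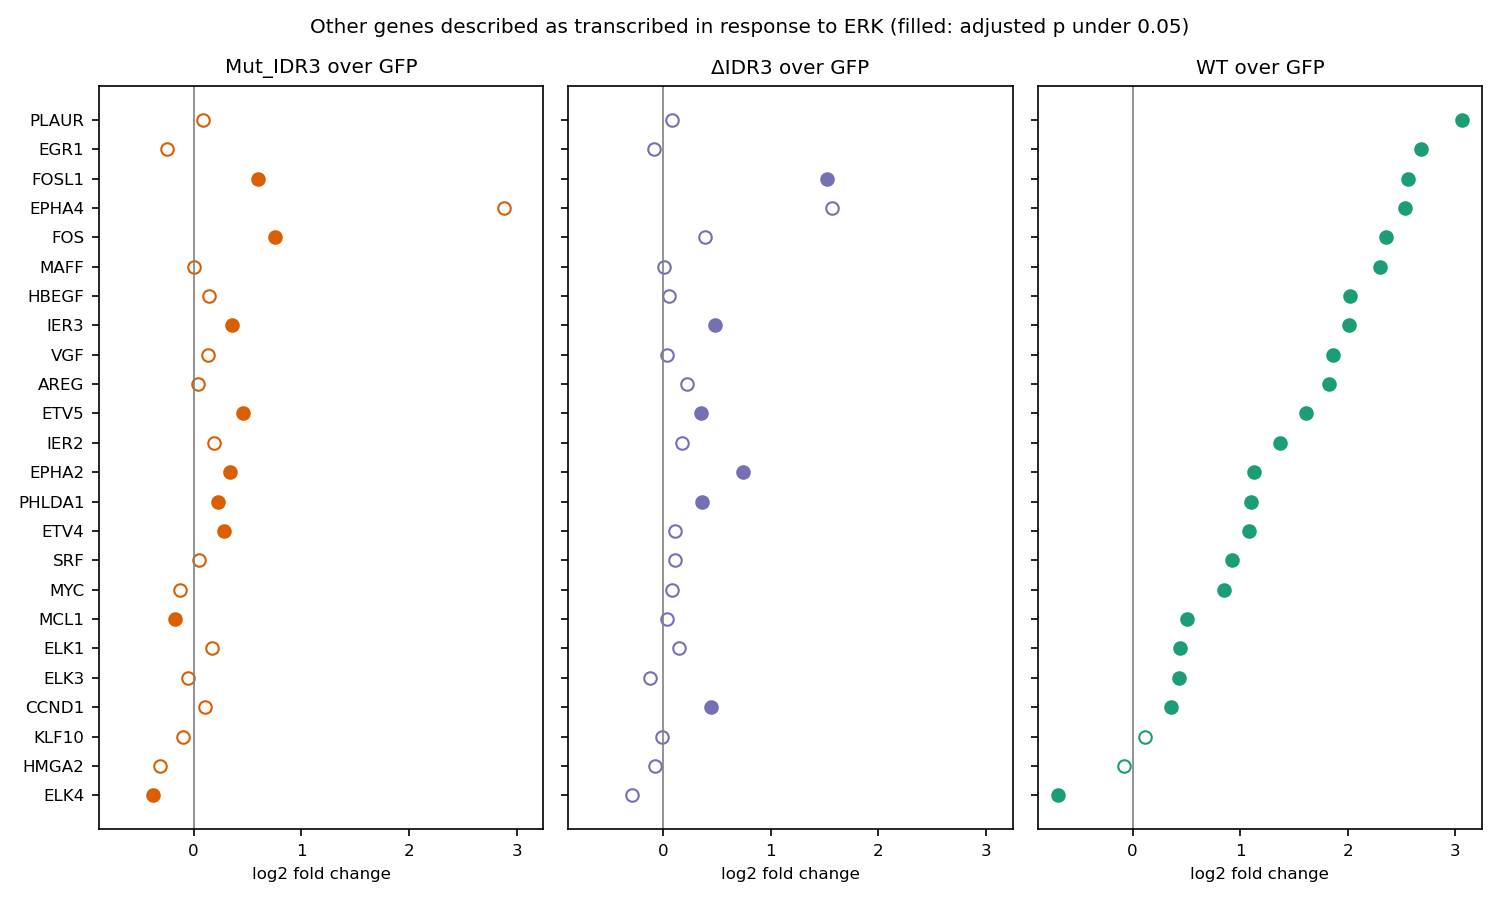
Log2 fold changes (horizontal axes) over GFP of 24 of the 25 tested genes listed as transcriptional outputs of ERK, in Mut_IDR3, ΔIDR3 and WT. ELK1, ELK3 and ELK4 are included, and genes are ordered by the WT value. Filled points had an adjusted p under 0.05. In WT the points run from -0.69 for ELK4 to 3.06 for PLAUR, and most are called higher.

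The rest of the pathway did not shift in 1 direction with WT. Of the core genes from EGFR to ERK, 11 rose (40.7%) and 10 fell (37.0%) of 27 tested, where 27.7% of all tested genes rose and 27.1% fell, with a median log2 fold change of 0.10. PTPN11, the phosphatase SHP2, fell (-0.89, adjusted p = 2.09e-07), ARAF and MAP2K1, which encode a RAF kinase and MEK1, rose (0.72, adjusted p = 6.46e-07, and 0.51, adjusted p = 7.38e-07), and RPS6KA3, the ERK-activated kinase RSK2, fell (-0.68, adjusted p = 1.55e-06). With the GC trend removed these 4 remained called, at -0.55, 0.40, 0.33 and -0.19. MAPK3, which encodes ERK1, was not called (0.14, adjusted p = 0.119), but was called lower with the GC trend removed (-0.18, adjusted p = 0.00433). Of the p38 and JNK branches, 6 rose (31.6%) and 9 fell (47.4%) of 19, with MAP2K3 higher (0.87, adjusted p = 3.6e-08) and MAP3K5, MAP3K7 and MAP2K4 lower (-0.88, -0.67 and -0.70). With the GC trend removed, 4 rose and 5 fell, where 23.8% of all tested genes rose. The share that fell is not given here for that setting. With the replicate block added to it, 3398 of the 14792 tested genes rose and 3481 fell. MAP3K7 was then at -0.09 (adjusted p = 0.229).

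Relatives of the members are set beside all tested genes, of which 27.7% rose and 27.1% fell (23.8% rose with the GC trend removed). Of 5 genes listed with the other MAP kinase phosphatases, by family and not by measured activity, 3 rose. They were DUSP7 (0.50, adjusted p = 0.000117), STYXL1 (0.35, adjusted p = 0.000394) and DUSP8 (0.79, adjusted p = 0.00717). With the GC trend removed only STYXL1 kept its call, while DUSP7 (0.19, adjusted p = 0.0603) and DUSP8 (0.46, adjusted p = 0.0994) lost theirs. Of 8 tested atypical phosphatases of 14 listed, DUSP14 (0.49) and DUSP22 (0.52) rose. With the GC trend removed DUSP22 lost its call (0.29, adjusted p = 0.0581) and DUSP11 gained one (0.48, adjusted p = 0.000732, against 0.14 and 0.285 before). Of 24 tested further inhibitors at the level of receptors and RAS, 8 rose (33.3%) and 7 fell (29.2%), near the shares of all tested genes, with a median of -0.05. ERRFI1, the EGFR inhibitor MIG6 (1.11, adjusted p = 7.43e-08), TRIB3, a pseudokinase (0.74, adjusted p = 4.83e-07), SPRED3 (1.83, adjusted p = 2.48e-05) and SPRY1 (0.77, adjusted p = 0.000225) rose. The RAS inactivators RASAL2 (-1.02, adjusted p = 8.2e-09) and NF1, which encodes neurofibromin, the partner of SPRED1 (-0.78, adjusted p = 6.03e-07), fell. With the GC trend removed RASAL2 was at -0.61, NF1 at -0.41 and TRIB3 at 0.41, each still called.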

How the data were processed

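The authors deposited raw counts per gene, which were used as deposited. RNA was extracted with a Qiagen kit and libraries were made with a SMARTer mRNA kit, per the labels' protocols. Trim Galore, HISAT2 and StringTie with GRCh38 (hg38) are named, without versions, per the submitters' processing notes. The counting program, annotation and strand setting are not given in the sources used here. Genes kept by filterByExpr (14792 of 24302 features) were scaled by TMM and tested with edgeR 4.0.16 (quasi-likelihood F test, R 4.3.3) in 1 model of 4 groups with 8 residual degrees of freedom, Benjamini-Hochberg adjusted over all tested genes and called at an adjusted p under 0.05. The smallest p that an exact test of 2 groups of 3 allows is 0.1. SE is the log2 fold change divided by the square root of F. The GC trend was removed with offsets in 20 bins by GC (genes averaging 1 CPM or more), from the longest transcript in GENCODE 29, which also gave coordinates. Alternatives were other scalings and filters, DESeq2 1.42.0, limma-voom (limma 3.58.1), 2 groups only, the replicate number as a block, stricter calls and single libraries left out.

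Members, lists and tests were chosen with earlier results of these data known. All members were described, with up to 4 called genes of the lowest adjusted p in WT against GFP per list and other examples, and the 2 nearest genes of each member among those with at least 5 CPM in the highest group (prior count 2). Libraries of 1 group differed beyond sampling noise (chi-square per degree of freedom 8.8 to 38.7), most in WT (18.2 to 38.7). Each was counted as its own sample, though this noise does not show that they came from different cultures. On simulated counts for WT against GFP with 14578 genes tested, edgeR called 62.7%, 82.1% and 98.5% of genes changed 1.5, 2 and 4-fold and 5 unchanged genes. With a GC trend simulated as well, 5478 unchanged genes of 14604 tested were called, and 5 once it was removed by the same GC values. Only 200 genes were changed in the simulations, whereas 8118 were called in WT against GFP. The simulated rates thus need not hold for these data. A few single-gene results that these rules would name are not reported here. Intervals and floors cover counting error only where they rest on counts.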

Additional observations from a re-analysis of the deposited data

How the results depend on the processing

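Of 972 recomputed log2 fold changes of members, 910 kept their direction and call, 55 lost the call, 5 gained it and 2 reversed. The 2 that reversed were SPRED1 in WT against GFP, at 0.35 with the GC trend removed, alone or with the replicate block. Members called in Mut_IDR3 against GFP were 2, but 1 by limma-voom, with the 2 groups only, with the GC trend removed (with and without the replicate block) and at an adjusted p under 0.01, 0 at a minimum of 2-fold, and 1 to 2 with single libraries left out. In ΔIDR3 against GFP the 5 became 1 at 2-fold (4 to 5 with libraries left out), and in ΔIDR3 against WT the 9 became 5 at 2-fold (9 throughout with libraries left out). In Mut_IDR3 against ΔIDR3 the 4 became 2 with the 2 groups only, 2 at 0.01, 1 at 2-fold and 2 to 4 with libraries left out. They became 5 with the GC trend removed, and were 4 with the GC trend removed and the replicate block. Members called in WT against GFP were 8 to 9, and in Mut_IDR3 against WT 8, with libraries left out.

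Genes called over the whole table at a minimum of 2-fold were 158 in Mut_IDR3 against GFP, 443 in ΔIDR3 against GFP, 1657 in WT against GFP, 972 in Mut_IDR3 against WT, 1359 in ΔIDR3 against WT and 132 in Mut_IDR3 against ΔIDR3. At 0.01 they were 1349 in Mut_IDR3 against GFP, 2506 in ΔIDR3 against GFP and 596 in Mut_IDR3 against ΔIDR3. With single libraries left out they ranged from 1566 to 2277 in Mut_IDR3 against GFP, against 3114 with all, 3099 to 3564 in ΔIDR3 against GFP, 7320 to 8329 in WT against GFP, 5478 to 6772 in Mut_IDR3 against WT, 6792 to 7785 in ΔIDR3 against WT and 819 to 1143 in Mut_IDR3 against ΔIDR3, against 1594. Upper-quartile scaling gave 1074 higher and 570 lower genes in Mut_IDR3 against ΔIDR3, where TMM gave 819 and 775, and kept the members' counts. The cause of these changes was not tested beyond the stricter limits and fewer libraries themselves.

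No shared effect of the replicate number was detected. The deviations of same-numbered libraries correlated between -0.07 and 0.08 over 18 pairs, 0 above 0.1, and 3 of 12 libraries correlated best with their own number. Low correlations cannot show that libraries were unpaired, and the labels do not state a pairing. With the replicate block the members called stayed at 9, 2, 5, 8, 9 and 4 in WT, Mut_IDR3 and ΔIDR3 against GFP, Mut_IDR3 and ΔIDR3 against WT and Mut_IDR3 against ΔIDR3, and 1206 genes were called in the last. With the block and the GC trend removed, 1885 genes were called in Mut_IDR3 against GFP. The genes with few counts, SPRY4 (118 to 233 counts a group outside WT) and DUSP6, limit what small differences could be seen, and DUSP2 gave none. WT and mutants also differed in TFAP2B RNA.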
